A study of Mus musculus with 6 samples.

Results

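Fibroblast and extracellular matrix genes, a set of 38 collagen, matrix and fibroblast genes, were taken from the colon tables by gene symbol. They were 38 of 19949 genes and unnamed entries in the tables, and all 38 passed the filter on low counts that left 15066 genes for testing. The rule for membership uses gene symbols and no measured level. The set held 5 fibrillar collagen chains, 2 collagens that bind fibrils, 3 collagen VI chains, 4 basement membrane collagens, 5 small proteoglycans and partners, 8 elastic fibre and cross-linking genes, 5 adhesive or matricellular glycoproteins, 2 hyaluronan genes and 4 fibroblast surface genes.

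The study compared STAT6-/- mice, which lack the transcription factor STAT6, with wild-type (WT) mice, both of the BALB/c strain and aged 6 to 8 weeks. Mice of both genotypes drank 3% dextran sulfate sodium (DSS), which injures the colonic epithelium, for 3 days, so there was no group without DSS. Pieces of rinsed and scraped colon were profiled by RNA sequencing, with 3 libraries for each genotype. The labels do not say whether the libraries of a genotype came from separate animals, and a p-value then covers only the variation among these samples, which may be technical. The labels do not name the Stat6 allele.

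Fibroblasts of the gut wall secrete the collagens, proteoglycans and glycoproteins that hold the mucosa, muscle and vessels together. Fibrillar collagens give tensile strength, elastic fibres give recoil, and basement membrane collagens form sheets under epithelium and around vessels, muscle and nerves. Small leucine-rich proteoglycans coat collagen fibrils and set their spacing, while matricellular proteins such as tenascin C and thrombospondin 1 are known for their induction in wounded tissue. STAT6 relays interleukin-4 and interleukin-13 signals, to which fibroblasts are among the responding cells.

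Levels are given as CPM, the counts of a gene relative to the scaled total of its library, in the order of STAT6-/- libraries 1, 2 and 3 and then WT libraries 1, 2 and 3. Log2 fold changes are STAT6-/- over WT with their standard error (SE). A gene was called, and is said to have risen or fallen, at a Benjamini-Hochberg adjusted p below 0.05 in edgeR's quasi-likelihood F test over all 15066 genes. Every adjusted p of a gene's level below is from that test. Stat6 itself was at 49.9, 38.5 and 53.2 CPM in the STAT6-/- libraries and at 91.7, 104 and 88.8 CPM in the WT libraries, a 2.01-fold difference (log2 -1.01 ± 0.16 SE, adjusted p = 0.0134). The libraries held 17122315 to 19555450 expected counts. Xist, expressed from the inactive X chromosome, was at 0.26 to 0.99 CPM in the STAT6-/- libraries and 352 to 545 CPM in the WT libraries, and the Y-linked Ddx3y was at 50.9 to 59.5 CPM against 0.057 to 0.12 CPM. Genotype and sex therefore cannot be told apart in any comparison below.

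Library to library spread within a genotype was large for these genes. The 38 members together took 0.557%, 0.235% and 0.813% of the counts in STAT6-/- libraries 1, 2 and 3, and 0.482%, 0.805% and 1.21% in WT libraries 1, 2 and 3. STAT6-/- library 2 had the lowest level of its group for 34 of the 38 members and the lowest of all 6 libraries for 28. STAT6-/- library 3 was the highest of its group for 36 members. Among the WT libraries, library 1 was lowest for 32 members and library 3 highest for 30. The highest over the lowest library of a genotype had a median ratio of 3.21 over the members in STAT6-/- and 2.17 in WT, against 1.63 and 1.28 over all tested genes. The genes thus moved up and down largely as a block between libraries of 1 genotype, and the summed shares of the 2 genotypes overlapped.

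**Figure D1:**
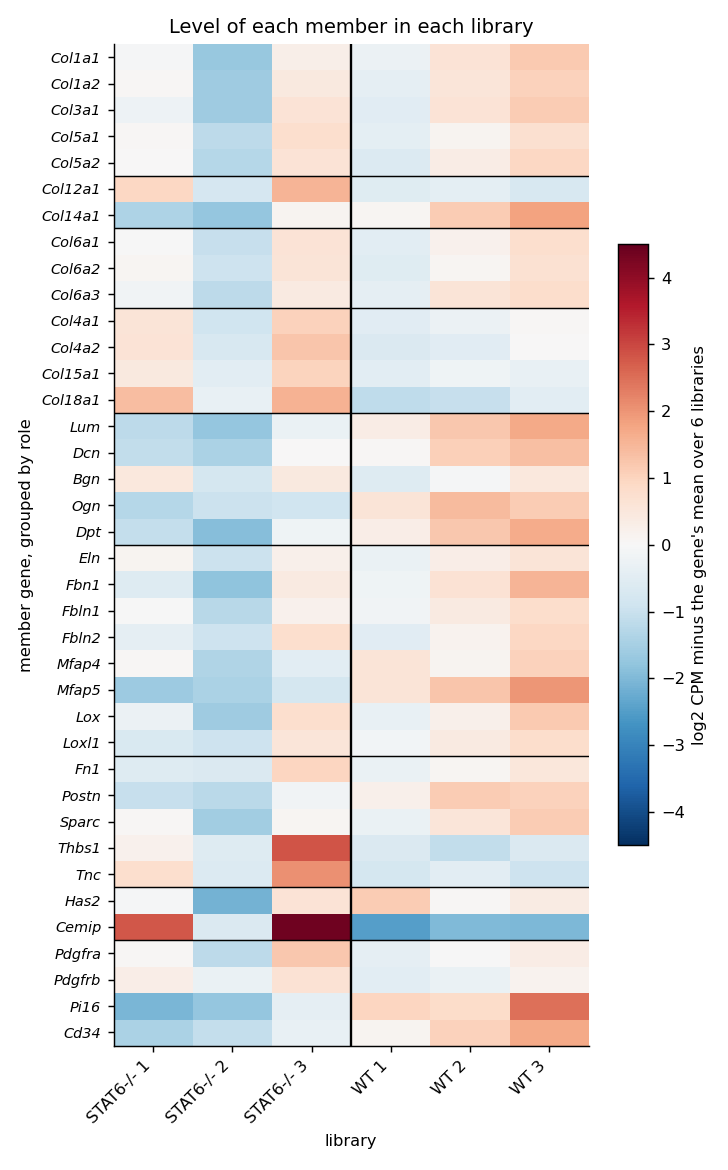
Log2 CPM of each of the 38 members in each of the 6 libraries, minus that gene's mean over the 6 libraries (colour), with rows grouped by role. STAT6-/- library 2 was the lowest of all 6 libraries for 28 members and WT library 3 the highest for 23, while Cemip, Thbs1 and Col18a1 were highest in STAT6-/- library 3.

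Of the 38 members 2 rose in STAT6-/- colon, the basement membrane collagen Col18a1 and the hyaluronan-degrading Cemip. A further 7 fell, the fibril-coating Lum, Ogn and Dpt, the microfibril gene Mfap5, the matricellular Postn and the surface genes Pi16 and Cd34. The other 29 did not pass the test. The median log2 fold change over the members was -0.57 against 0.01 over all tested genes, with 27 members below 0 and 11 above. The 2 members called higher are 5.26% of the set, where 11.4% of all tested genes were called higher, and the 7 called lower are 18.4%, where 11.5% of all tested genes were called lower. Levels did not overlap between the genotypes for 3 members that were higher in STAT6-/- (7.89%) and 9 that were lower (23.7%), against 22.0% and 24.5% of all tested genes, so the share without overlap among the lower members was close to the background.

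The calls depended on single libraries. Without STAT6-/- library 2, the member count was 8 higher and 7 lower (21.1% and 18.4%, against 17.9% and 15.9% of all tested genes), and the added calls were Col4a1, Col4a2, Col15a1, Col12a1, Thbs1 and Tnc, all higher. Without STAT6-/- library 1, 3 members were called, and Col18a1, Lum, Dpt, Postn, Pi16 and Cd34 lost their calls. Col18a1 also lost its call without STAT6-/- library 3, and Col18a1 and Cemip did without WT library 1. Without WT library 2 or WT library 3, 0 members were called by edgeR, with 13 and 10 members at an unadjusted p below 0.05. In those fits 0.2% and 0.117% of all tested genes were called. At an unadjusted p below 0.05 were 4370 of 15497 and 4285 of 15395 tested genes, so the unadjusted member counts are no sign of an excess. Bulk tissue was measured, so fewer cells of a type and less RNA per cell cannot be told apart.

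**Figure D2:**
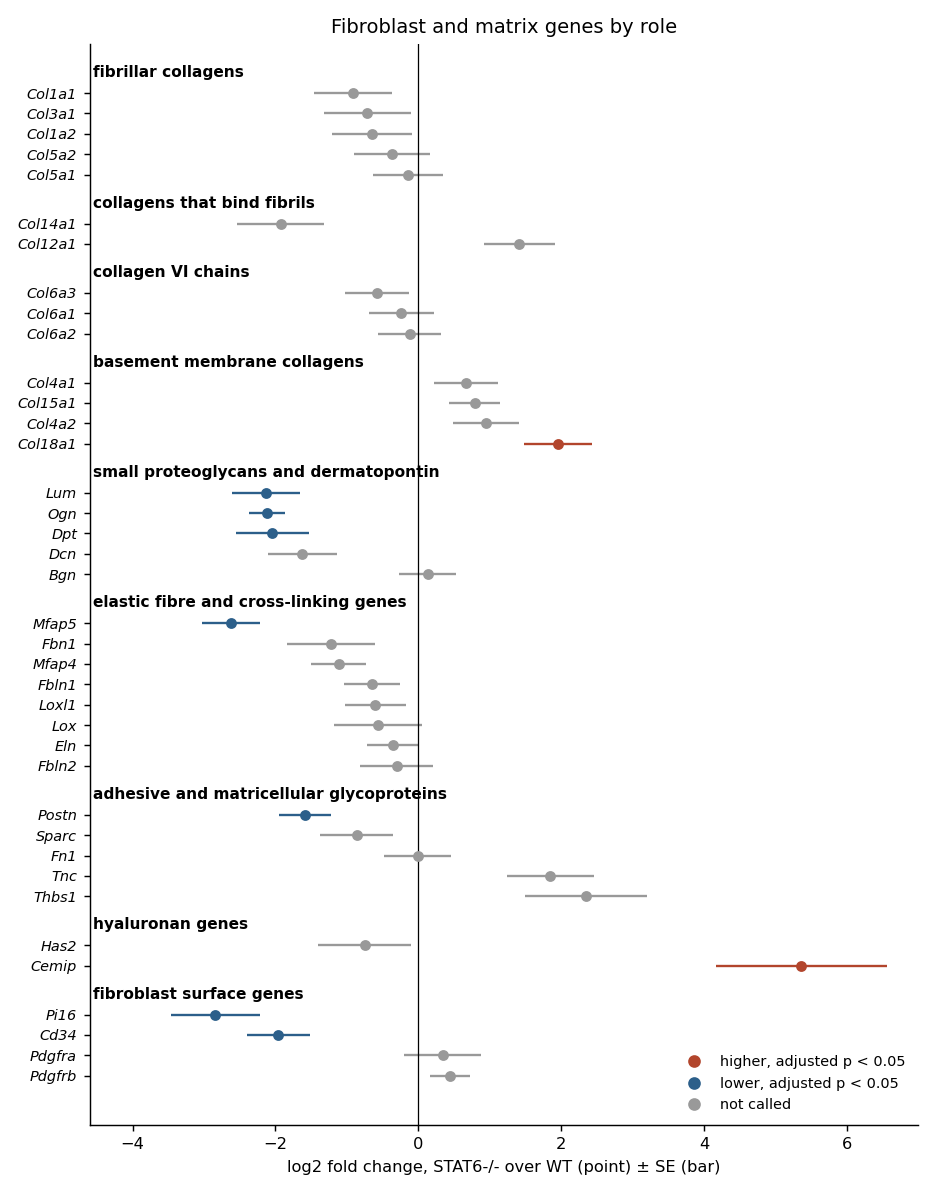
Log2 fold change of STAT6-/- over WT (points) with its standard error (bars) for the 38 members, grouped by role, from edgeR on 3 libraries per genotype. All 4 basement membrane collagens lie above 0 and all 8 elastic fibre and cross-linking genes below 0, with 2 members called higher and 7 called lower.

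None of the 5 fibrillar collagen chains, the load-bearing rods of the matrix, was called, and all 5 had fold changes below 0 (median -0.65). Col3a1, the most abundant, encodes the collagen III chain of distensible tissues. It was at 963, 374 and 1736 CPM in the STAT6-/- libraries and 793, 1758 and 2494 CPM in the WT libraries (log2 -0.72 ± 0.61 SE, adjusted p = 0.409). The groups overlapped, with STAT6-/- library 3 close to WT library 2 and STAT6-/- library 1 above WT library 1. The other chains, Col1a1 and Col1a2 of collagen I and Col5a1 and Col5a2 of the fibril-nucleating collagen V, lay between -0.92 and -0.14, with adjusted p from 0.25 to 0.848. The 3 collagen VI chains, which form beaded filaments around cells, lay between -0.57 and -0.12 and none was called. Their most abundant member Col6a1 was at 140, 69.7 and 218 CPM against 104, 162 and 239 CPM (log2 -0.24 ± 0.45 SE, adjusted p = 0.715), so the groups overlapped.

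The chains of 1 collagen molecule can be set beside each other in FPKM, which corrects for transcript length. The level of Col1a1 over that of Col1a2 was 0.635, 0.632 and 0.597 in STAT6-/- and 0.742, 0.72 and 0.758 in WT, with no overlap. Col4a1 over Col4a2 was 1.65, 1.49 and 1.45 against 1.83, 1.98 and 1.76, also with no overlap. Both ratios were lower in every STAT6-/- library, and they varied far less within a genotype than the levels did. Col6a3 over Col6a2 was 0.21, 0.213 and 0.222 against 0.281, 0.355 and 0.272. Col6a1 over Col6a2 was 1.02, 1.05 and 1.13 against 1.19, 1.19 and 1.15. The ratio of the collagen V chains, Col5a1 over Col5a2, overlapped between the genotypes, at 0.66, 0.691 and 0.702 against 0.721, 0.554 and 0.565 (exact two-sided permutation p = 0.4). Between molecules, Col5a2 over Col1a2 was 0.149, 0.192 and 0.175 against 0.133, 0.134 and 0.141, and was the one of the 11 ratios between 2 members that was higher in every STAT6-/- library. Col3a1 over Col1a2 did overlap, at 1.88, 2.29 and 2.58 against 2.1, 2.44 and 2.46. With 3 libraries against 3 the exact two-sided permutation test cannot go below 0.1, which is its value for each of these ratios without overlap. Of those 11 ratios, the pairs of fibroblast and proteoglycan genes described below included, 9 did not overlap, and their Benjamini-Hochberg adjusted p in that exact test is 0.122. Several ratios share a member and some hold a gene called by level, so they are not independent. The share without overlap among ratios of other gene pairs was not computed, so the count has no background to be read against.

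The 2 collagens that bind the surface of fibrils differed in direction, although neither was called. Col12a1, a collagen of tendon, wounds and stroma under load, was at 52.6, 16.4 and 78.8 CPM in STAT6-/- and 18.6, 20.2 and 16.6 CPM in WT (log2 1.42 ± 0.50 SE, adjusted p = 0.0806). STAT6-/- library 2 was the lowest of all 6 and the other two were above every WT library. Col14a1 was at 21, 16.3 and 59.7 CPM against 57.9, 120 and 190 CPM (log2 -1.93 ± 0.60 SE, adjusted p = 0.0591), and only STAT6-/- library 3 reached the WT range. DESeq2 called both, with adjusted p of 0.018 and 0.00463.

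The 4 basement membrane collagens were all above 0, with a median of 0.87, and 1 was called. Col18a1, whose C-terminal fragment is the angiogenesis inhibitor endostatin, lies at chr10:77052178-77166530 (mm10). It was at 101, 30.7 and 114 CPM in the STAT6-/- libraries and 17.4, 18.6 and 27.4 CPM in the WT libraries, a 3.88-fold rise (log2 1.96 ± 0.48 SE, adjusted p = 0.0306). Every STAT6-/- library was above every WT library, although STAT6-/- library 2 exceeded WT library 3 only slightly. Col4a1, the most abundant of the 4 in CPM and a chain of the collagen IV network, was at 307, 110 and 414 CPM against 143, 168 and 213 CPM (log2 0.67 ± 0.45 SE, adjusted p = 0.301). Its partner Col4a2 had log2 0.94 ± 0.46 (SE, adjusted p = 0.168), and Col15a1, which links basement membrane to the stroma, log2 0.79 ± 0.35 (SE, adjusted p = 0.14). In all 3 of these genes STAT6-/- library 2 lay within or below the WT range.

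The small proteoglycans held the largest number of calls, with 3 of 5 members lower. Lum (lumican, at chr10:97565501-97572703, mm10) coats collagen fibrils. It was at 47.6, 32.1 and 88.8 CPM in STAT6-/- and 136, 252 and 351 CPM in WT, and fell by 2.13 on the log2 scale (SE 0.47, adjusted p = 0.0245). All 3 STAT6-/- libraries were below all WT libraries, also for the next 2 genes. Ogn (osteoglycin, at chr13:49608015-49624501, mm10) was at 56.9, 70.5 and 73.6 CPM against 206, 370 and 300 CPM, and fell by 2.12 on the log2 scale (SE 0.25, adjusted p = 0.00965). Unlike most members, Ogn varied little among the STAT6-/- libraries, with a highest over lowest ratio of 1.29. Dpt (dermatopontin, at chr1:164796663-164824274, mm10), a small protein that binds decorin and collagen, was at 69.6, 39.2 and 130 CPM against 180, 339 and 466 CPM, and fell by 2.04 on the log2 scale (SE 0.51, adjusted p = 0.0328).

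Dcn (decorin), the most abundant gene of this group, lay just outside the threshold. It was at 269, 215 and 580 CPM in STAT6-/- and 601, 1200 and 1473 CPM in WT (log2 -1.62 ± 0.48 SE, adjusted p = 0.0505), without overlap but with STAT6-/- library 3 just below WT library 1. Bgn (biglycan), the closest relative of decorin, was at 219, 89.8 and 215 CPM against 106, 152 and 221 CPM (log2 0.13 ± 0.40 SE, adjusted p = 0.829), and its groups overlapped. In FPKM, Dcn stood at 1.61, 3.17 and 3.54 times Bgn in the STAT6-/- libraries and at 7.46, 10.3 and 8.7 times Bgn in the WT libraries. Lum stood at 0.255, 0.419 and 0.482 times Bgn against 1.51, 1.94 and 1.86 times. Both ratios separated the genotypes in every library, with the smallest two-sided exact permutation p that the design allows, 0.1. The levels of Dcn and Lum already did so and that of Bgn did not, so these ratios are not separate support.

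All 8 elastic fibre and cross-linking genes had fold changes below 0 (median -0.62), and 1 was called. Mfap5, a microfibril-associated glycoprotein at chr6:122513584-122529290 (mm10), was at 6.81, 7.83 and 12.1 CPM in STAT6-/- and 31.2, 50.1 and 83 CPM in WT. It fell by 2.62 on the log2 scale (SE 0.40, adjusted p = 0.0122), with no overlap. Fbn1, the fibrillin that builds the same microfibrils, had log2 -1.22 ± 0.62 (SE, adjusted p = 0.181), and its groups overlapped. Mfap4 was at 23.4, 8.77 and 16.3 CPM against 33.9, 24.4 and 46.7 CPM without overlap (log2 -1.12 ± 0.39 SE, adjusted p = 0.0782). The elastin gene Eln, the fibulins Fbln1 and Fbln2 and the cross-linking oxidases Lox and Loxl1 lay between -0.65 and -0.30, with adjusted p from 0.256 to 0.682.

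Of the 5 adhesive and matricellular glycoproteins Postn fell and the others were not called. Postn (periostin, at chr3:54359267-54391041, mm10), which binds collagen I and promotes its cross-linking, was at 130, 116 and 238 CPM in STAT6-/- and 314, 588 and 554 CPM in WT. It fell by 1.59 on the log2 scale (SE 0.36, adjusted p = 0.0265), and the highest STAT6-/- library was below the lowest WT library. The collagen-binding Sparc had log2 -0.86 ± 0.51 (SE, adjusted p = 0.246).

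The wound-associated Thbs1 and Tnc pointed the other way, with 1 library far above the rest. Thbs1 was at 69.9, 40.8 and 437 CPM in STAT6-/- and 39.7, 28.4 and 39.4 CPM in WT (log2 2.35 ± 0.85 SE, adjusted p = 0.0856). The groups did not overlap, but STAT6-/- library 2 was nearly level with WT library 1, and without STAT6-/- library 3 the log2 fold change was 0.67. Tnc was at 114, 43.6 and 283 CPM against 39.3, 47.9 and 35.1 CPM (log2 1.85 ± 0.61 SE, adjusted p = 0.0664), with STAT6-/- library 2 inside the WT range, and its log2 fold change was 0.997 without STAT6-/- library 3.

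**Figure D3:**
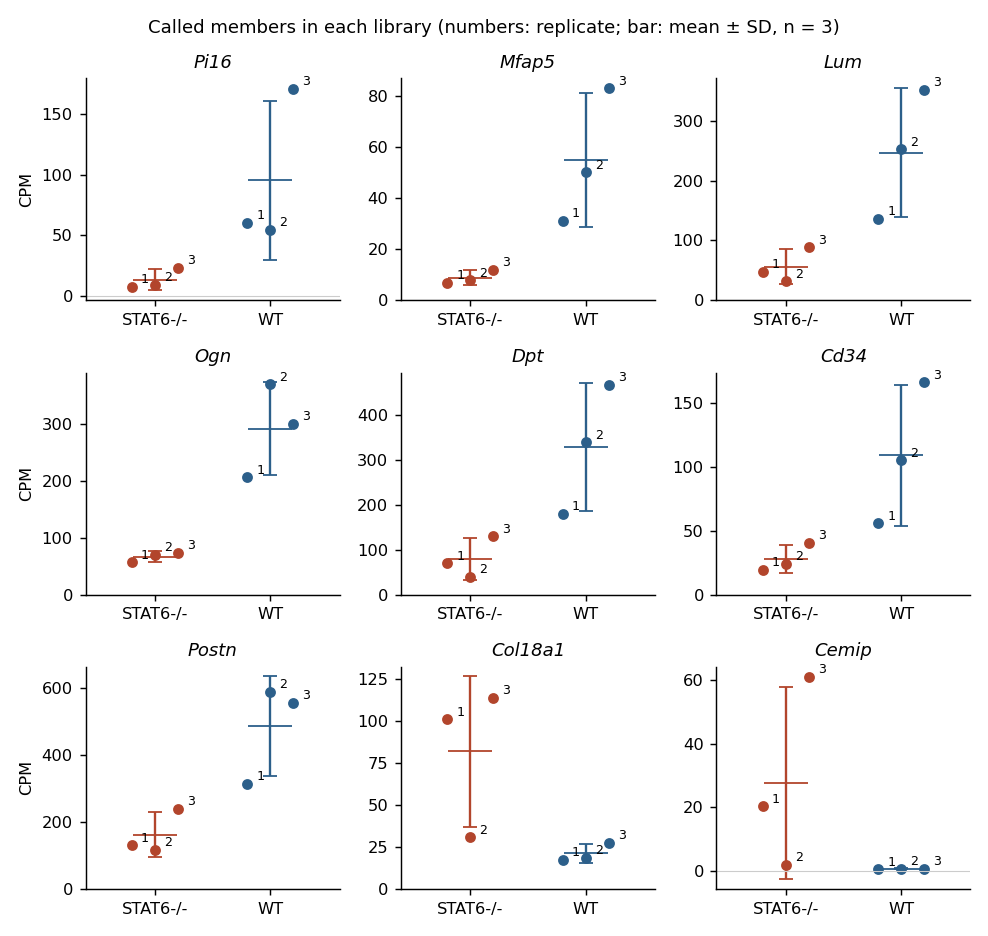
CPM of the 9 called members in each library (points, numbered by replicate) with the mean and SD of 3 libraries per genotype. For each gene the lowest library of the higher genotype lies above the highest library of the other, from Pi16 at 7.37 to 23.3 CPM against 54.7 to 171 CPM to Cemip at 1.88 to 61.1 CPM against 0.532 to 0.745 CPM.

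Fn1 encodes fibronectin, a scaffold on which other matrix proteins assemble. Its level did not separate the genotypes, at 195, 187 and 562 CPM in STAT6-/- and 234, 306 and 412 CPM in WT (log2 -0.01 ± 0.47 SE, adjusted p = 0.99). Its transcripts differ in 2 cassette exons, extra domain A (EDA) and extra domain B (EDB), that mark the cellular form made by tissue cells and are left out of the plasma form made by the liver. Both are in frame and are shown because the transcript estimates differ in them. The EDA exon, exon 32 of 45 in the transcript read, is chr1:71603660-71603929 on the minus strand, and 4 of the 7 RefSeq Fn1 transcripts hold it. The EDB exon, exon 25 of 46, is chr1:71613763-71614035 on the minus strand, and 1 of the 7 holds it. Capitals mark the exon and the lower-case letters the 10 bases of the neighbouring exons in the spliced transcript, from GENCODE M21 on GRCm38, the assembly of mm10.
EDA exon: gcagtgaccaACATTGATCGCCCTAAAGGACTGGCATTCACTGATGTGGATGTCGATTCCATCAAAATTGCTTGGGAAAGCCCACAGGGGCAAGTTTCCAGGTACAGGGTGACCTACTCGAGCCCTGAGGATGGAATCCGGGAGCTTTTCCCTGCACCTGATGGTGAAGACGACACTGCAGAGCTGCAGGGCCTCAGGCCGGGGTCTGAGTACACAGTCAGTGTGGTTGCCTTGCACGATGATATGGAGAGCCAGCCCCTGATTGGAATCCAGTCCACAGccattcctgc
EDB exon: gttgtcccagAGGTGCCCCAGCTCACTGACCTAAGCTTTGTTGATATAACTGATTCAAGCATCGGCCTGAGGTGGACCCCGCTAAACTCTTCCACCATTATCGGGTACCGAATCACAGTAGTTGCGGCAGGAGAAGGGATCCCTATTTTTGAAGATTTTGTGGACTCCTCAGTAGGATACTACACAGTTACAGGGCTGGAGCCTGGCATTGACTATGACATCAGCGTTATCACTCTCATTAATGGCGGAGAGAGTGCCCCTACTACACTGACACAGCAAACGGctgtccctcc

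Transcripts with the EDA exon made up 46.7%, 26.7% and 42.2% of Fn1 FPKM in the STAT6-/- libraries and 16.1%, 12.6% and 16.8% in the WT libraries. The mean was 38.5% ± 10.5 against 15.2% ± 2.24 (SD, n = 3 each), and every STAT6-/- library lay above every WT library (exact two-sided permutation p = 0.1, the smallest that 3 against 3 allows). Transcripts with the EDB exon made up 15.5%, 7.46% and 9.19% against 1.33%, 2.56% and 5.28%, again without overlap and with the same exact permutation p of 0.1. The EDB transcript also holds the EDA exon, so its share is part of the EDA share and is not a separate result. In absolute terms the FPKM with EDA was 12.2, 6.15 and 28.3 against 4.62, 4.44 and 8.84, and the FPKM without it 14, 16.9 and 38.8 against 24, 30.7 and 43.8. The levels of both forms overlapped between the genotypes, and only the shares did not. Shares without overlap were not particular to Fn1. They were seen for 13 of the 32 transcripts of the 12 members with 2 or more, among them both of Pdgfrb. No share over all genes stands beside that count.

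edgeR's transcript usage test over all genes called 0 of the 29 tested transcripts of 11 members, with 5 at an unadjusted p below 0.05, against 0.482% called over all 8716 tested transcripts. The smallest adjusted p values of Fn1 transcripts in it were 0.572 and 0.977. RSEM assigns shared reads among near-identical transcripts by estimation. The error of that step is not in the deposited values, so the transcript shares are less certain than the gene levels.

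**Figure D4:**
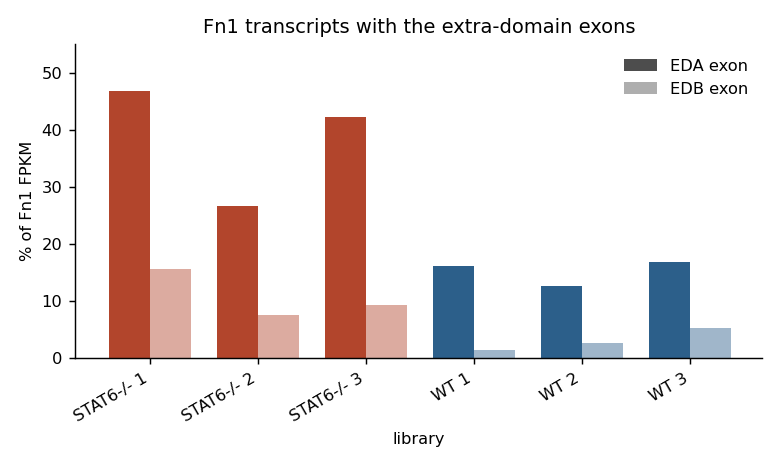
Share of Fn1 FPKM, in percent, in transcripts that hold the EDA exon (full colour) or the EDB exon (pale) in each library. EDA shares run from 26.7% to 46.7% in STAT6-/- and from 12.6% to 16.8% in WT, and EDB shares from 7.46% to 15.5% and from 1.33% to 5.28%. The EDB transcript also holds the EDA exon, so the EDB shares are part of the EDA shares.

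The 2 hyaluronan genes act at opposite ends of the polymer's life. Cemip, which binds hyaluronan and starts its breakdown, lies at chr7:83932857-84086693 (mm10). It was at 20.4, 1.88 and 61.1 CPM in the STAT6-/- libraries and 0.532, 0.745 and 0.737 CPM in the WT libraries, a log2 fold change of 5.36 ± 1.2 (SE, adjusted p = 0.0249). All 3 STAT6-/- libraries were above the WT libraries, but they spanned a 32.5-fold range, the widest of any member. Without STAT6-/- library 3 the log2 fold change was 4.09, and the call was lost in limma-voom, in limma on log2 FPKM and when any WT library was left out. Has2, a hyaluronan synthase, was at 2.61, 0.627 and 4.18 CPM against 6.03, 2.85 and 3.57 CPM (log2 -0.75 ± 0.65 SE, adjusted p = 0.418), with overlap.

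Of the 4 fibroblast surface genes Pi16 and Cd34 fell and the growth factor receptors were not called. Pi16, a peptidase inhibitor gene known as a marker of adventitial fibroblasts, lies at chr17:29318796-29328903 (mm10). It was at 7.37, 9.19 and 23.3 CPM in STAT6-/- and 60.4, 54.7 and 171 CPM in WT, and fell by 2.84 on the log2 scale (SE 0.62, adjusted p = 0.0236). WT library 3 was the highest, and the log2 fold change was -2.12 without it and -3.49 without STAT6-/- library 3. Cd34, found on fibroblasts and on vessel endothelium, lies at chr1:194938821-194961292 (mm10). It was at 19.4, 24.3 and 40.5 CPM against 55.8, 105 and 166 CPM and fell by 1.96 on the log2 scale (SE 0.44, adjusted p = 0.0257). Neither gene overlapped between the genotypes.

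Pdgfra, the platelet-derived growth factor receptor used to mark gut fibroblasts as a whole, was at 56.6, 24.5 and 127 CPM in STAT6-/- and 41.5, 53.6 and 69.4 CPM in WT (log2 0.34 ± 0.54 SE, adjusted p = 0.663). Pdgfrb, the receptor shared by fibroblasts and pericytes, had log2 0.45 ± 0.28 (SE, adjusted p = 0.273), and both overlapped. In FPKM, Pi16 stood at 0.385, 1.11 and 0.542 times Pdgfra in STAT6-/- and 4.29, 3.01 and 7.26 times in WT. Cd34 stood at 0.893, 2.61 and 0.837 times Pdgfra against 3.55, 5.18 and 6.3 times. Both ratios separated the genotypes in every library (exact two-sided permutation p = 0.1 for each, the smallest possible). The levels of Pi16 and Cd34 already did so and that of Pdgfra did not, so these ratios are not separate support.

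Because the whole set moved with the library, each of the 33 other members was also divided by the geometric mean FPKM of the 5 fibrillar chains in the same library. This measure was added after the levels had been seen, is given without a test across genes, and carries the spread of the chains themselves. On this scale 13 members (39.4%) were higher in STAT6-/- without overlap and 8 (24.2%) were lower, against 11.9% and 1.09% of all tested genes. The fibrillar mean itself was 44.4, 14.9 and 58.6 FPKM in STAT6-/- and 30.2, 52.4 and 85.4 FPKM in WT. That spread cancels for members that move with the chains and is added to genes that do not. The shares of members and of all genes are therefore not comparable, and their difference shows nothing about genotype. Col4a2 was at 0.682, 0.731 and 0.702 times the fibrillar mean in STAT6-/- and 0.377, 0.221 and 0.216 times in WT. Col18a1 was at 0.481, 0.392 and 0.362 times against 0.109, 0.0632 and 0.0617 times, and Col12a1 at 0.109, 0.092 and 0.11 times against 0.0507, 0.0298 and 0.0167 times. STAT6-/- library 2, which was the lowest of its genotype in CPM for these genes, lay beside the other STAT6-/- libraries in all 3 of these ratios. That did not hold for every member. Mfap5 was at 0.12, 0.372 and 0.142 times the fibrillar mean in STAT6-/- libraries 1, 2 and 3, and Cd34 at 0.188, 0.643 and 0.265 times.

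The members lower on the same scale were Col14a1, Lum, Dcn, Dpt, Fbn1, Mfap5, Pi16 and Cd34. Lum was at 0.565, 1.03 and 0.707 times the fibrillar mean in STAT6-/- and 2.14, 2.13 and 2.03 times in WT. Dpt was at 1.05, 1.61 and 1.32 times against 3.59, 3.66 and 3.44 times. The WT libraries, which differed by a factor of 2.57 in the CPM of Lum and 2.6 in that of Dpt, were nearly level in these ratios. Ogn and Postn, both called by edgeR, overlapped on this scale because STAT6-/- library 2 stood at 1.85 and 2.47 times the fibrillar mean and WT library 3 at 1.41 and 2.12 times.

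**Figure D5:**
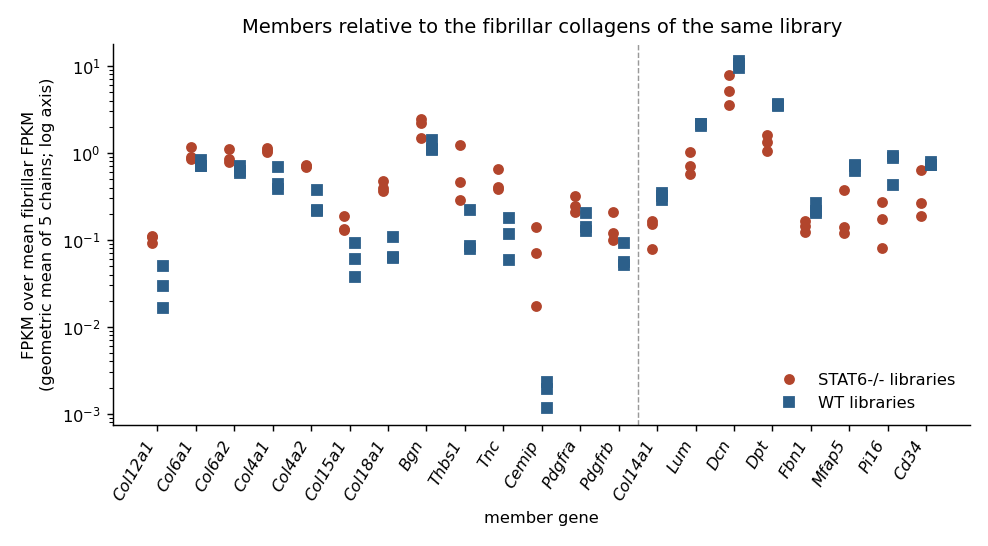
FPKM of a member over the geometric mean FPKM of the 5 fibrillar collagen chains of the same library, on a log axis, with 1 point per library, for the 21 of 33 members whose genotypes did not overlap. The 13 genes left of the dashed line are higher in STAT6-/-, such as Col18a1 at 0.362 to 0.481 against 0.0617 to 0.109, and the 8 to its right are lower, such as Lum at 0.565 to 1.03 against 2.03 to 2.14.

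Promoters could be matched for 23 of the 38 members in a RefSeq table (GRCm38.p6, 250 bases before to 50 after each start), which gave 28 promoters. STAT proteins are known to bind TTC and GAA held apart by a short spacer, and STAT6 is known to favour the spacer of 4 bases. Searched on both strands, TTC and GAA separated by 4 bases occurred in 1 of the 28 member promoters (3.57%, that of Bgn) and in 6.95% of all 32851 promoters. With the spacer of 3 bases the shares were 3.57% (that of Dpt) and 8.3%. The TATA-type word TATAAA occurred in 7 member promoters of 6 genes (25.0%), among them the called Cemip, Dpt, Ogn and Postn, and in 13.6% of all promoters. The AP-1 type word TGANTCA was in 1 (3.57% against 7.81%), and CCAAT was in 6 (21.4% against 37.4%). Each word was counted on its own, also where it overlapped another, and a match is a description of the letters only. The 100 bases before the downstream of the 2 starts of Postn, which fell, are shown because they hold TATAAA (capitals), 26 bases before that start. They are chr3:54361007-54361106 on the plus strand, inside the span given for the gene above, which begins at the upstream start.
Postn promoter: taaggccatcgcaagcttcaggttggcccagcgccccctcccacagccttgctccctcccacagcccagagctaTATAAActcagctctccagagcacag

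The genes that build, fold and receive the matrix were read from related lists. In the main test 11.4% of all tested genes were called higher and 11.5% lower. An unadjusted p below 0.05 was reached by 6067 of the 15066 tested genes. These shares stand beside the counts of the lists here and of the cell type markers below. Of 30 other collagen chains 19 were tested, and 3 rose and 0 fell by edgeR (8 at an unadjusted p below 0.05), with a median log2 fold change of 0.38. Col6a5 was at 15.8, 5.9 and 8.83 CPM in STAT6-/- and 2.78, 3.23 and 4.31 CPM in WT (adjusted p = 0.0372). Col9a2 and Col9a3, chains of the cartilage collagen IX, rose at levels below 2 CPM, and the most abundant, Col16a1, had log2 0.05 ± 0.33 (SE, adjusted p = 0.923). Of 26 collagen folding and processing genes 3 rose and 1 fell (median -0.09). P4hb, the disulfide isomerase subunit of prolyl 4-hydroxylase and the most abundant of them, was at 613, 599 and 662 CPM against 368, 318 and 275 CPM (log2 0.96 ± 0.18 SE, adjusted p = 0.0169). The lysyl hydroxylase Plod3 rose by 1.23 (SE 0.22) and the collagen export gene Mia3 by 0.61 (SE 0.14) on the log2 scale, with adjusted p of 0.0156 and 0.0256. Pcolce2, an enhancer of procollagen cleavage, was at 1.21, 0.783 and 3.76 CPM against 9.17, 17.7 and 31.2 CPM and fell by 3.34 (SE 0.70, adjusted p = 0.0219).

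Of 15 laminins and other basement membrane genes 3 rose and 0 fell by edgeR (3 at an unadjusted p below 0.05), with a median of 0.54. Lamb3, an epithelial laminin chain and the most abundant of the list, was at 193, 297 and 723 CPM in STAT6-/- and 125, 136 and 105 CPM in WT (log2 1.73 ± 0.47 SE, adjusted p = 0.0412). Agrn and Lama1 rose by 0.85 (SE 0.23, adjusted p = 0.0394) and 2.97 (SE 0.84, adjusted p = 0.0453) on the log2 scale. Lama1 was low and overlapped, at 11.5, 0.94 and 7.04 CPM against 0.887, 0.62 and 0.964 CPM, with STAT6-/- library 2 inside the WT range. Of 42 tested other matrix glycoproteins and proteoglycans 1 rose and 5 fell (median -0.37), where 11.4% of all tested genes rose and 11.5% fell. The fallen genes were Aspn, a relative of decorin, with Srpx, Ecm2, Efemp1 and Sparcl1. Aspn was at 32, 17 and 25.9 CPM against 55.8, 97.2 and 128 CPM (log2 -1.91 ± 0.36 SE, adjusted p = 0.0167), and the most abundant, Sparcl1, at 142, 140 and 273 CPM against 329, 503 and 607 CPM (log2 -1.38 ± 0.35 SE, adjusted p = 0.0343). Ccn5 rose at levels of 1.04 to 1.35 CPM against 0.113 to 0.532 CPM.

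Signals and receptors were mixed. Of 20 TGF-beta and PDGF signalling genes Tgfb1 and Smad4 rose and Tgfb3 and Pdgfd fell (median 0.07). Tgfb1 was at 49.2, 13.9 and 39.4 CPM in STAT6-/- and 9.94, 8.07 and 10.3 CPM in WT (log2 1.86 ± 0.44 SE, adjusted p = 0.0289), and Tgfb3 at 6.49, 5.95 and 11.2 CPM against 13.2, 18.5 and 28.1 CPM (log2 -1.34 ± 0.37 SE, adjusted p = 0.0415). The ligands of the 2 genes use the same receptors and differed in direction. Pdgfd, a ligand of the Pdgfrb receptor, fell from 4.26, 8.81 and 9.02 CPM in WT to 1.21, 0.94 and 2.64 CPM (adjusted p = 0.0263), and Smad4 rose by 0.60 (SE 0.18, adjusted p = 0.0498). Of 22 matrix receptors 4 rose and 2 fell (median 0.55). Dag1, the laminin receptor dystroglycan, was at 242, 240 and 254 CPM against 123, 124 and 103 CPM (log2 1.07 ± 0.15 SE, adjusted p = 0.0108). The collagen and laminin binding integrin Itga2 rose by 2.31 (SE 0.50, adjusted p = 0.0231) and the syndecan Sdc2 fell by 1.22 (SE 0.20, adjusted p = 0.0132), while the most abundant, Itgb1, had log2 -0.10 ± 0.27 (SE, adjusted p = 0.809).

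Markers of the cell types in colon pieces were summed per library. The sum of 24 other fibroblast genes was 1506, 1109 and 2696 CPM in STAT6-/- and 1819, 2610 and 3103 CPM in WT, with overlap. A large part of it was Gsn and C3. By edgeR 0 of the 24 rose and 3 fell, Fap, Ackr4 and Sox6 (7 at an unadjusted p below 0.05). The list as a whole was split, with 11 fold changes above 0 and 13 below (median -0.02). Fgf10 was higher in STAT6-/- without overlap but not called. The 11 epithelial markers summed to 20464 to 29462 CPM in STAT6-/- and 19554 to 25539 CPM in WT, with overlap. Of these 2 rose and 0 fell by edgeR (8 at an unadjusted p below 0.05), with a median log2 fold change of 0.80. The risen ones were Krt20, a keratin of mature surface cells, at 1750, 1042 and 2207 CPM against 557, 769 and 468 CPM (adjusted p = 0.026), and Vil1, the brush border gene villin, at 919, 868 and 1252 CPM against 419, 543 and 367 CPM (adjusted p = 0.02). Lgals4 and Slc26a3, also among those 8, were lower in STAT6-/- without overlap but not called. Lgals4 was at 2383, 4432 and 4218 CPM against 6249, 7788 and 6780 CPM (adjusted p = 0.0692). Slc26a3 was at 738, 1608 and 254 CPM against 3187, 3373 and 2176 CPM (adjusted p = 0.0799). The sum of 10 smooth muscle markers was 2402 to 5408 CPM in STAT6-/- and 9283 to 11487 CPM in WT, and 8 of the 10 fell. The sum of 7 adipocyte markers was 9.87 to 32.4 CPM against 58.7 to 398 CPM, 4 of the 5 tested fell, and Plin1 and Lep were at 0 in at least 1 library. Both sums were lower in STAT6-/- without overlap, as were the levels of the 7 fallen members. The pericyte sum was 142 to 225 CPM against 236 to 371 CPM, with 1 of 5 tested genes fallen. That gene, Rgs5, was a large part of the sum, at 82.3, 108 and 93.5 CPM against 164, 295 and 226 CPM. Every other gene of the list overlapped between the genotypes, and of the 5 tested 2 had fold changes above 0.

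Of the 10 endothelial markers 3 rose, Plvap, Vwf and Flt1. The sum of the 10 was 117 to 287 CPM in STAT6-/- and 91.1 to 161 CPM in WT, with overlap. Fold changes were above 0 for 7 of them and below 0 for 3, Tek, Emcn and Lyve1, which were not called. The leukocyte sum was 1677 to 2246 CPM against 974 to 1537 CPM, without overlap and with 1 of 8 genes risen. A large part of it was the plasma cell gene Jchain. Jchain overlapped, at 1071, 1471 and 1550 CPM against 1293, 712 and 532 CPM (adjusted p = 0.191). Of the other genes Cd3e and Cd79a were higher in STAT6-/- without overlap, while Lyz2 and Csf1r were lowest in STAT6-/- library 2. The sum therefore does not show a separation without overlap that its genes share. The fold changes of all 8 were above 0 (median 1.88), with 4 at an unadjusted p below 0.05 by edgeR. The mesothelial sum was 4.02 to 13.7 CPM against 6.21 to 83.7 CPM, with 0 of 4 tested genes called by edgeR and 0 at an unadjusted p below 0.05. Of 8 markers of enteric glia and neurons 2 rose and 1 fell, with overlapping sums. Whether a different mixture of cells in the pieces had a part in the results above was not tested.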

How the data were processed

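Colon RNA of 3 STAT6-/- and 3 WT libraries was measured, 1 deposited table per library. Expected counts, deposited by the authors, are estimated reads per RefSeq transcript without scaling between libraries, per the file headers. The second deposited column is FPKM, which the authors corrected for transcript length and depth. The submitters' processing notes name the aligner Bowtie2 2.2.5, the quantifier RSEM 1.2.12 and the build mm10. The lowest listed FPKM is 0.01, and transcripts missing from a table were set to 0.

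Of 28238 transcripts, 27986 were named from RefSeq (GRCm38.p6) and 149 from GENCODE M21, and 103 with 0.167% of the counts stayed separate entries. Expected counts were summed per gene and rounded. A count of 3, the limit that a count of 0 allows, was 0.14 to 0.186 CPM after TMM scaling, which covers counting error only. The members and lists were chosen with earlier results of these data known.

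The main test used edgeR 4.0.16 under R 4.3.3, with TMM factors, filterByExpr and robust quasi-likelihood F tests, with the genotype as the only term. The SE is the log2 fold change over the square root of F. The fit was tested on simulated data. Genes given in full were, in each role, the called members or else the most abundant, and in each related list up to 3 called genes of smallest p and the most abundant. Other genes were named after their values were seen. The members were also compared by FPKM ratios with exact permutation tests. The plan held FPKM levels only for the chains of 1 collagen, without a test, so the other pairs and these tests lie outside it. The ratio to the fibrillar chains, the Fn1 exon shares and the transcript usage test (diffSpliceDGE, 8716 transcripts of 3490 genes) were added after the data were seen. Alternatives were other scalings and filters, DESeq2 1.42.0, limma 3.58.1, a replicate block and each library left out. Figures used matplotlib 3.10.9.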

Additional observations from a re-analysis of the deposited data

How the results depend on the processing

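The member counts of 2 higher and 7 lower were recomputed under 17 alternatives. The higher count was 5 by DESeq2, 0 by limma-voom (2 at an unadjusted p below 0.05), 0 by limma on log2(FPKM + 1) (3 at an unadjusted p below 0.05) and 1 by limma on log2(FPKM + 0.1). Leaving out 1 library in turn gave 0 to 8 higher and 0 to 10 lower members. The lower count was 7 to 10 under all other alternatives, and the median log2 fold change stayed between -0.92 and -0.18.

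The replicate numbers were not taken to pair the libraries. Deviations of same-numbered libraries correlated at 0.023, 0.044 and 0.134, and STAT6-/- library 2 correlated more with WT library 1 (0.054). All remaining pairs lay between -0.109 and -0.014, so STAT6-/- libraries 1 and 3 were closest to the WT library of the same number. These values do not settle whether the libraries were paired. A replicate block gave 2 higher and 10 lower members, the added calls being Col14a1, Dcn and Mfap4, and moved the calls over all genes from 1718 to 1219 higher and from 1731 to 1445 lower.

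Of the 9 called members 0 changed sign in any alternative, and all 9 lost the call in at least 1. Among the uncalled members 8 changed sign and 10 were called in at least 1 alternative. The log2 fold change of Fn1 was 0.0056 with RLE size factors and with DESeq2, 0.0101 with library size only and 0.0139 with no filter. When 1 library was left out, log2 fold changes ran from -0.69 to 0.27 for Fn1, -0.62 to 0.25 for Col5a1, -0.80 to 0.026 for Col5a2, -0.64 to 0.11 for Col6a1, -0.45 to 0.23 for Col6a2, -0.10 to 0.47 for Bgn, -0.89 to 0.14 for Fbln2 and -0.39 to 0.76 for Pdgfra. The cause was not tested. Cemip in WT was the one case of a member below 1 CPM in every library of a genotype.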
